A study of Mus musculus with 2 samples.

Results

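The 9 genes described here, across lung macrophages and monocytes, take part in the uptake of dead cells and debris: the phosphatidylserine-sensing kinases Mertk and Axl with their bridging ligand Gas6, the endocytic receptor Lrp1, and the scavenger or adhesion receptors Stab1, Siglec1, Mrc1, Msr1 and Marco. They were taken by name from a written list, and all 9 are among the 29413 genes that both deposited matrices hold under the same Ensembl identifier. Female Balb/c mice received Labelling-4T1 cells into a vein and their lungs were taken 7 days later; 4T1 is a mouse mammary carcinoma line, used here in a form that marks its surroundings. Sorted immune cells were profiled by droplet single-cell RNA sequencing in 2 libraries, one titled niche and one titled distal lung, and both come from tumour-bearing lungs, so no tumour-free lung is part of the comparison. In labelling systems of this kind, neighbouring cells take up a protein released by the tumour cells, so entry to a niche gate itself involves uptake. Neither the gates nor how many animals stand behind a library could be read from the labels.

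Efferocytosis is the engulfment of dying cells. Phosphatidylserine exposed on a dying cell is bound by bridging proteins such as Gas6, which engage the receptor kinases Mertk and Axl on the phagocyte, whereas Stab1 binds phosphatidylserine itself and Lrp1 takes part in uptake that is triggered by calreticulin. Msr1, Marco and Mrc1 bind modified lipoproteins, microbial surfaces and mannosylated glycoproteins, and Siglec1 binds sialylated surfaces. In the lung, alveolar macrophages clear surfactant and inhaled particles in the air space, interstitial macrophages sit in the tissue around vessels and airways, and monocytes supply further macrophages during injury or tumour growth.

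The niche library held 3242 barcodes and 38036915 unique molecular identifiers (UMIs), and the distal library 3945 barcodes and 22323465 UMIs. After filtering, 3081 niche cells with a median of 11197 UMIs and 3535 distal cells with a median of 5786 UMIs were clustered without the 9 genes, and 4 barcodes were shared between libraries. Cells were named from marker lists, giving in the niche and distal library 11 and 1211 alveolar macrophage-like cells, 84 and 120 interstitial macrophage-like cells, 2016 and 339 monocyte-derived macrophage-like cells, 16 and 76 classical monocyte-like cells, and 17 and 187 non-classical monocyte-like cells. The 12 interstitial markers were all detected in interstitial macrophage-like cells of both libraries, and so were the 12 monocyte-derived markers in monocyte-derived macrophage-like cells. The same lists gave the names, so this detection does not test them. Monocyte-derived cells also had UMIs of 12 interstitial markers in the niche and 11 in the distal library. The interstitial list shares complement genes with the monocyte-derived list, and the monocyte-derived list summed to 18417 counts per 1000000 (CPM) in niche and 20328 CPM in distal interstitial cells. In monocyte-derived cells themselves it summed to 14033 CPM in niche and 12819 CPM in distal cells, so this sum does not separate the 2 classes. Each condition is 1 library, so no difference between conditions has a replicate check, and every interval below is a 95% interval for counting error only. Library, depth and counting software cannot be told apart from the condition.

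The distal library holds at least 50 cells of all 5 classes, and in it the genes fell into different profiles. 5 of the 9 genes, Mertk, Axl, Lrp1, Mrc1 and Marco, had their highest level in alveolar macrophage-like cells, although Marco was highest in monocyte-derived cells under 3 of 7 alternative settings. For Mrc1 this order holds for pooled classes, since part of the interstitial class, described below, exceeded the alveolar level in point estimate. Gas6, Stab1 and Siglec1 had their highest level in interstitial macrophage-like cells, and Msr1 in monocyte-derived macrophage-like cells. None was highest in a monocyte class. A level here is a gene's share of the UMIs of the class, as CPM, and it is compared between classes of 1 gene, not between genes. The 9 genes are protein-coding and none shares exonic bases with another gene on its strand. On GRCm38 in GENCODE, Mertk lies at chr2:128698956-128802894, Axl at chr7:25757273-25788705, Gas6 at chr8:13465374-13494490, Lrp1 at chr10:127538161-127621148 and Stab1 at chr14:31139013-31168641. Siglec1 lies at chr2:131069220-131086765, Mrc1 at chr2:14229392-14332057, Msr1 at chr8:39581685-39642673 and Marco at chr1:120474538-120505024. Mertk and Mrc1 are on the plus strand and the other genes on the minus strand.

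**Figure D1:**
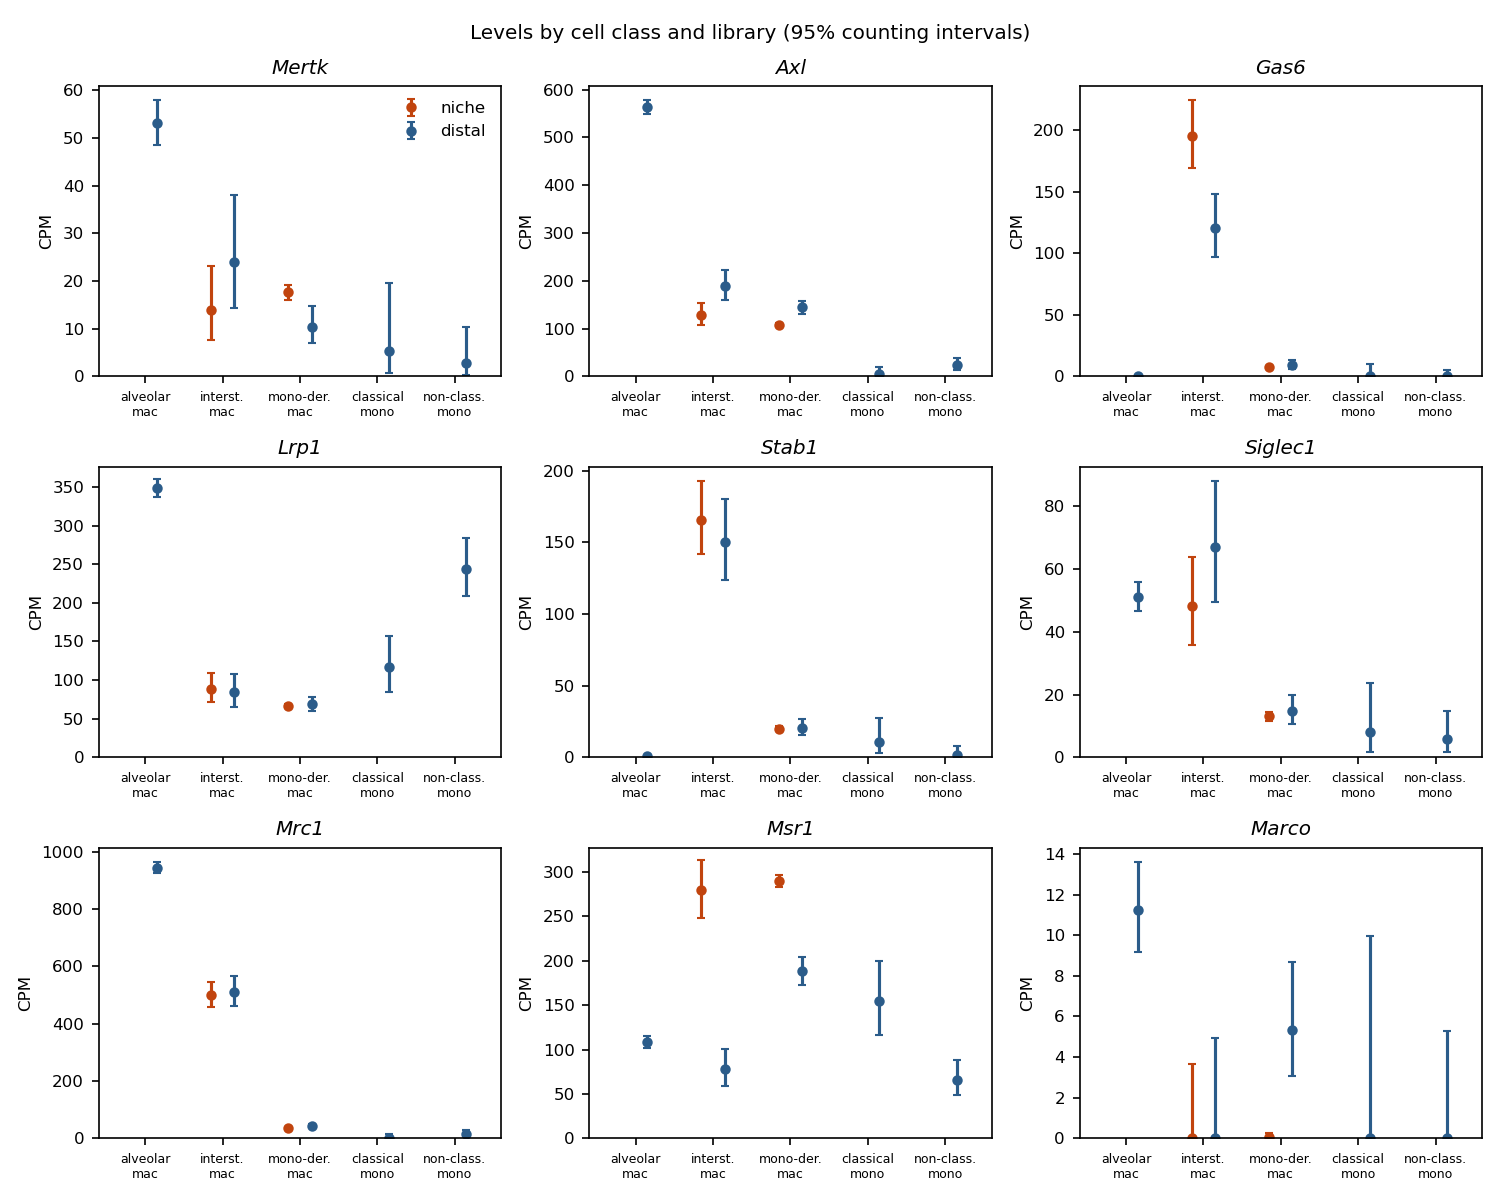
Level of each gene (CPM, linear axis) in the 5 cell classes, niche points left of distal points, with 95% counting intervals; only classes with at least 50 cells in that library are drawn. Gas6 and Stab1 reach 195 and 166 CPM in niche cells and 120 and 150 CPM in distal cells of the interstitial macrophage-like class and near 0 in alveolar ones, whereas Axl and Mrc1 are highest in alveolar cells.

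The receptor kinases Axl and Mertk had their highest levels in alveolar cells and their next highest in the pooled interstitial class. That class also had the highest level of the ligand Gas6 among these classes. It joins 2 groups of cells with unlike Axl and Gas6 levels, described below. Axl had 563 CPM in distal alveolar macrophage-like cells (interval 548 to 579, 5212 UMIs), 189 CPM in interstitial, 144 CPM in monocyte-derived, 24.4 CPM in non-classical and 5.41 CPM in classical monocyte-like cells. The 3 macrophage classes did not overlap, and the 2 monocyte classes did. Mertk had 53.1 CPM in alveolar cells (48.6 to 58.1), followed by 24.1 CPM in interstitial and 10.4 CPM in monocyte-derived cells, with 2 UMIs in each monocyte class. Only the step from alveolar to interstitial cells, 2.21-fold, exceeded the counting error for Mertk.

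Gas6, the ligand, was nearly absent from alveolar cells and highest in interstitial ones. It stood at 120 CPM in distal interstitial macrophage-like cells (96.8 to 148, 90 UMIs) and at 9.03 CPM in monocyte-derived cells, a 13.3-fold step. In 1211 distal alveolar macrophage-like cells a single Gas6 UMI was counted, and none was found in 76 classical or 187 non-classical monocyte-like cells, which allows up to 8.12 and 4.31 CPM. The class with the most Axl RNA thus held almost no RNA of this ligand. The pooled interstitial class held both, but the higher Gas6 and the higher Axl level lay in different groups of its cells, described below. Both monocyte classes were low for all 3 genes. Outside the macrophages, Gas6 was counted in a mixed cluster led by alveolar epithelial and endothelial genes, at 81.8 CPM in 33 niche cells (47.7 to 131) and 209 CPM in 123 distal cells (169 to 256).

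Lrp1 differed from the rest in the place of the monocytes, which stood above interstitial and monocyte-derived macrophages in order of level. Distal alveolar macrophage-like cells had 349 CPM (337 to 361) and non-classical monocyte-like cells 244 CPM (209 to 284), whereas classical monocyte-like cells had 116 CPM, interstitial cells 84.3 CPM and monocyte-derived cells 68.5 CPM. The non-classical level was 2.10 times the classical one and the intervals did not overlap. Classical, interstitial and monocyte-derived cells overlapped with their neighbours in this order.

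Stab1 and Siglec1, both markers of tissue macrophages, shared the interstitial maximum but differed in the alveolar cells. Stab1 had 150 CPM in distal interstitial macrophage-like cells (123 to 180), 20.7 CPM in monocyte-derived cells and 10.8 CPM in classical monocyte-like cells. Its alveolar level was 0.756 CPM, from 7 UMIs in 1211 cells. Siglec1, by contrast, had 66.9 CPM in interstitial cells (49.7 to 88.2) and 51.2 CPM in alveolar cells (46.7 to 56.0), which overlapped, and 14.7 CPM in monocyte-derived cells. Both monocyte classes had 4 or fewer Siglec1 UMIs.

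The mannose receptor Mrc1 was higher in the alveolar and interstitial classes than in monocyte-derived cells and monocytes. It had 945 CPM in distal alveolar cells (925 to 965), 511 CPM in interstitial cells (461 to 565) and 41.8 CPM in monocyte-derived cells. The step between the interstitial and the monocyte-derived class was 12.2-fold. The interstitial level pools groups of cells with unlike Mrc1 levels, described below. One of these groups stood above the distal alveolar level in point estimate, so the order of alveolar over interstitial holds for the pooled class only. Msr1 was spread over all 5 classes. It had 189 CPM in monocyte-derived cells (173 to 205) and 154 CPM in classical monocyte-like cells (117 to 200), which overlapped, then 109 CPM in alveolar, 77.6 CPM in interstitial and 66.1 CPM in non-classical monocyte-like cells.

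Marco, a scavenger receptor commonly named with alveolar macrophages, was counted in few cells. Its 104 UMIs in distal alveolar macrophage-like cells came from 37 of 1211 cells, and 12 of those cells held 73 of the UMIs. The monocyte-derived class had 16 UMIs in the distal library, of which 14 were in 1 cell, and 2 UMIs in 2016 niche cells. The Marco levels of 11.2 CPM in alveolar and 5.35 CPM in monocyte-derived distal cells therefore rest on few cells. The order of the 2 classes turned round with the settings: the distal monocyte-derived level ran from 0.36 to 29.1 CPM, and it exceeded the alveolar level at resolution 2.0 (18.7 against 11.1 CPM), without the highest doublet scores (29.1 against 11.0 CPM) and with the genes kept in the clustering (23.6 against 10.6 CPM).

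The 11 niche alveolar macrophage-like cells are too few for a comparison between libraries. Their Mrc1 level was 1040 CPM (835 to 1280), against 945 CPM in distal alveolar cells, and their Axl level was 561 CPM (414 to 744), against 563 CPM. Gas6 and Marco had no UMI in them, and Stab1 had 1. The niche classical monocyte-like cells had 216 CPM of Msr1 (130 to 338), and the niche non-classical ones 275 CPM of Lrp1 (168 to 424).

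The promoter stretches of 4 genes are shown because these genes had the largest fold differences between distal alveolar and interstitial macrophage-like cells. Lrp1 and Axl stood at 4.13 and 2.98 times the interstitial level in alveolar cells. Gas6 and Stab1 were, of these classes, almost wholly in interstitial cells. Marco, with no interstitial UMI and few alveolar cells, is not shown. The stretches are RefSeq sequence of build GRCm38.p6, from 250 bases before the annotated start up to the start. Axl lies at chr7:25788734-25788983, Lrp1 at chr10:127621149-127621398, Gas6 at chr8:13494536-13494785 and Stab1 at chr14:31168642-31168891, all on the minus strand. Capitals mark the letters GAGGAA or their complement TTCCTC, a core bound by the myeloid factor PU.1, and in Stab1 also TGCTGA, a half-site of MAF factors.
Axl: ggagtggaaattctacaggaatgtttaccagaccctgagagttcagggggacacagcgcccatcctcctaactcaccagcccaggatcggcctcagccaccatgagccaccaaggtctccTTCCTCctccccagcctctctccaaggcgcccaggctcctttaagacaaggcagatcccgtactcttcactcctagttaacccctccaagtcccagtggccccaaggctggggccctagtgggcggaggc
Lrp1: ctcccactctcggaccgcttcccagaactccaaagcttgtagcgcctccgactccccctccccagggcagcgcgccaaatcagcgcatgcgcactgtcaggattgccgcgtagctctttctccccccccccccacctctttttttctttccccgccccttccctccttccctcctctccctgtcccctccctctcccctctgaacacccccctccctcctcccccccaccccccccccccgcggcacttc
Gas6: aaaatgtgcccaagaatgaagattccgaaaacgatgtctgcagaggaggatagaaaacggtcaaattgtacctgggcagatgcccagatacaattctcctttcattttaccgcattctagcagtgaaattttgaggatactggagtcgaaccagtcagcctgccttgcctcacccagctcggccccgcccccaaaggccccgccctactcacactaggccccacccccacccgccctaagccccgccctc
Stab1: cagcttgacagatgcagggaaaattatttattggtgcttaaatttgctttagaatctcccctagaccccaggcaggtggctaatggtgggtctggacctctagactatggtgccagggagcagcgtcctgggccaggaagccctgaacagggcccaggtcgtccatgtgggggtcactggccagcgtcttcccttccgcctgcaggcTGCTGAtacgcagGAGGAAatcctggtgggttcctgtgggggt
The letters GAGGAA occurred once in the Axl window, 130 bases before the start, once in Stab1 at 30 bases and 3 times in Mrc1 at 180, 167 and 35 bases. They were not found in Gas6, Mertk or Lrp1, and 1 match was found in Marco. Of 27025 promoter windows of 250 bases, 23.1% held them on either strand. TGCTGA occurred in Stab1 43 bases before the start and in 15.8% of all windows. An interferon-regulatory-factor repeat and the E-box CACGTG were also searched on both strands, and neither was found in the windows of the 7 genes that the table holds; 3.04% and 6.05% of all windows held them. None of the motifs overlapped another. A match describes the letters only.

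Shares of cells with a UMI gave the same division after each cell had been thinned to 2000 UMIs. Mrc1 was detected in 80.7% of distal alveolar macrophage-like cells (78.4% to 82.9%, n = 1198 cells), in 46.2% of distal interstitial cells (36.9% to 55.6%, n = 117) and in 6.61% of distal monocyte-derived cells (n = 333). Distal T cell-like cells, which should lack the gene, showed it in 2.94% of 306 cells at a median depth of 3150.5 UMIs before thinning, against 7295.5 UMIs in the alveolar cells. Classical and non-classical monocyte-like shares of Mrc1, 1.32% (0.03% to 7.11%) and 1.95% (0.40% to 5.59%), could not be told from that background (1.35% to 5.51%). Axl was detected in 68.1% of distal alveolar cells and in 1.63% of T cell-like cells, while Gas6, Stab1 and Msr1 were detected in 0 of 306 T cell-like cells, which allows a share of up to 0.980%.

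**Figure D2:**
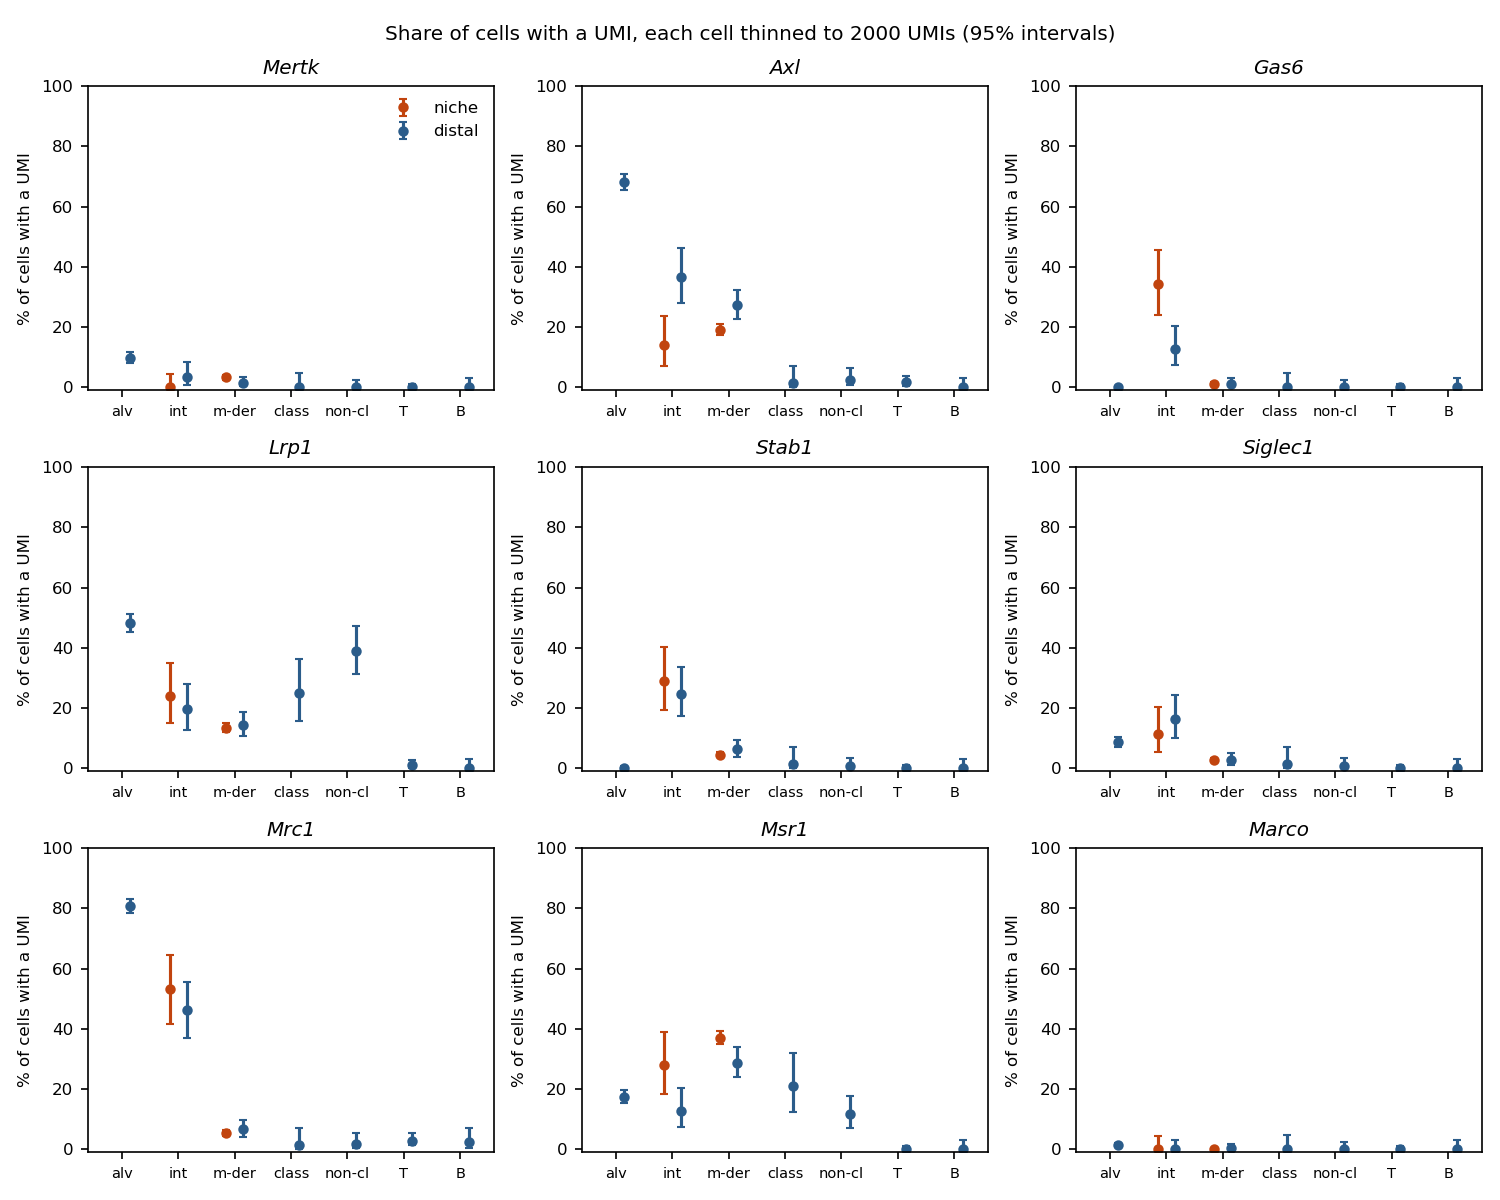
Percent of cells with at least 1 UMI of each gene after thinning every cell to 2000 UMIs, niche points left of distal points, with 95% binomial intervals; classes run from alveolar (alv), interstitial (int), monocyte-derived (m-der), classical (class) and non-classical (non-cl) to T and B cell-like cells as background. Mrc1 and Axl reach 80.7% and 68.1% of distal alveolar cells, and distal T and B cell-like cells lie at 2.94% or lower for all 9 genes. Only classes with at least 50 cells in that library after thinning are drawn. Niche points are therefore limited to interstitial and monocyte-derived cells, and niche T and B cell-like cells (25 and 14 cells) are not shown.

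On average, more of the 9 genes were found per cell in alveolar and interstitial cells than in monocyte-derived cells and monocytes. The spreads over cells overlapped. At 4000 UMIs a cell, distal alveolar macrophage-like cells held a mean of 3.27 ± 0.952 of the genes (SD over 1161 cells), and 80.8% held 3 or more. Interstitial cells held 3.16 ± 1.497 in the niche library (76 cells) and 2.52 ± 1.46 in the distal library (102 cells). Of these, 65.8% in the niche and 45.1% in the distal library held 3 or more. Monocyte-derived cells held 1.503 ± 1.004 in the niche library and 1.40 ± 1.01 in the distal library, and distal classical and non-classical monocyte-like cells 0.914 ± 0.844 and 0.889 ± 0.764. Cells of 1 library are not replicates, so these SDs describe cells, not samples.

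Within the alveolar class, the genes were not uniform. The cycling cluster of 97 cells had 417 CPM of Axl (377 to 460) and 690 CPM of Mrc1 (638 to 745), against 578 and 978 CPM in the main cluster of 1106 cells. Mertk had 32.4 CPM there, against 54.4 CPM. A cluster of 19 alveolar cells led by interferon-response genes had higher levels of 3 genes, with 118 CPM of Mertk (68.5 to 188), 118 CPM of Siglec1 (68.5 to 188) and 214 CPM of Msr1 (146 to 304), against 54.4, 52.1 and 111 CPM in the main cluster. These values rest on 17 Mertk, 17 Siglec1 and 31 Msr1 UMIs. Lrp1 was lower there, at 235 CPM (163 to 329) against 356 CPM (343 to 369), and Mrc1 stood at 816 CPM (676 to 978) against 978 CPM (957 to 999), with overlapping intervals.

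The monocyte-derived class was made of 4 clusters with separate profiles. The cluster led by interferon-response genes, such as Rsad2 and Ifit1, had the most Mertk, 32.6 CPM (27.6 to 38.3), against 16.7 CPM in the largest cluster, led by Cfb and Ly6c2. Siglec1, known as an interferon-response gene, was 12.5 CPM in it and 20.1 CPM in the cluster led by Cd63, Ccl8 and C1q genes, so its maximum lay elsewhere. That C1q-led cluster also had 53.5 CPM of Mrc1 (47.3 to 60.3) and 15.2 CPM of Gas6 (77 UMIs), against 19.5 and 3.32 CPM in the largest cluster. Its Msr1 was the lowest, 177 CPM against 295 CPM. The cycling cluster had the most Mrc1, 71.2 CPM (65.4 to 77.3), and 12.7 CPM of Gas6. Lrp1 was 38.5 CPM in the C1q-led cluster and 29.9 CPM in the cycling cluster, against 89.1 CPM in the largest.

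**Figure D3:**
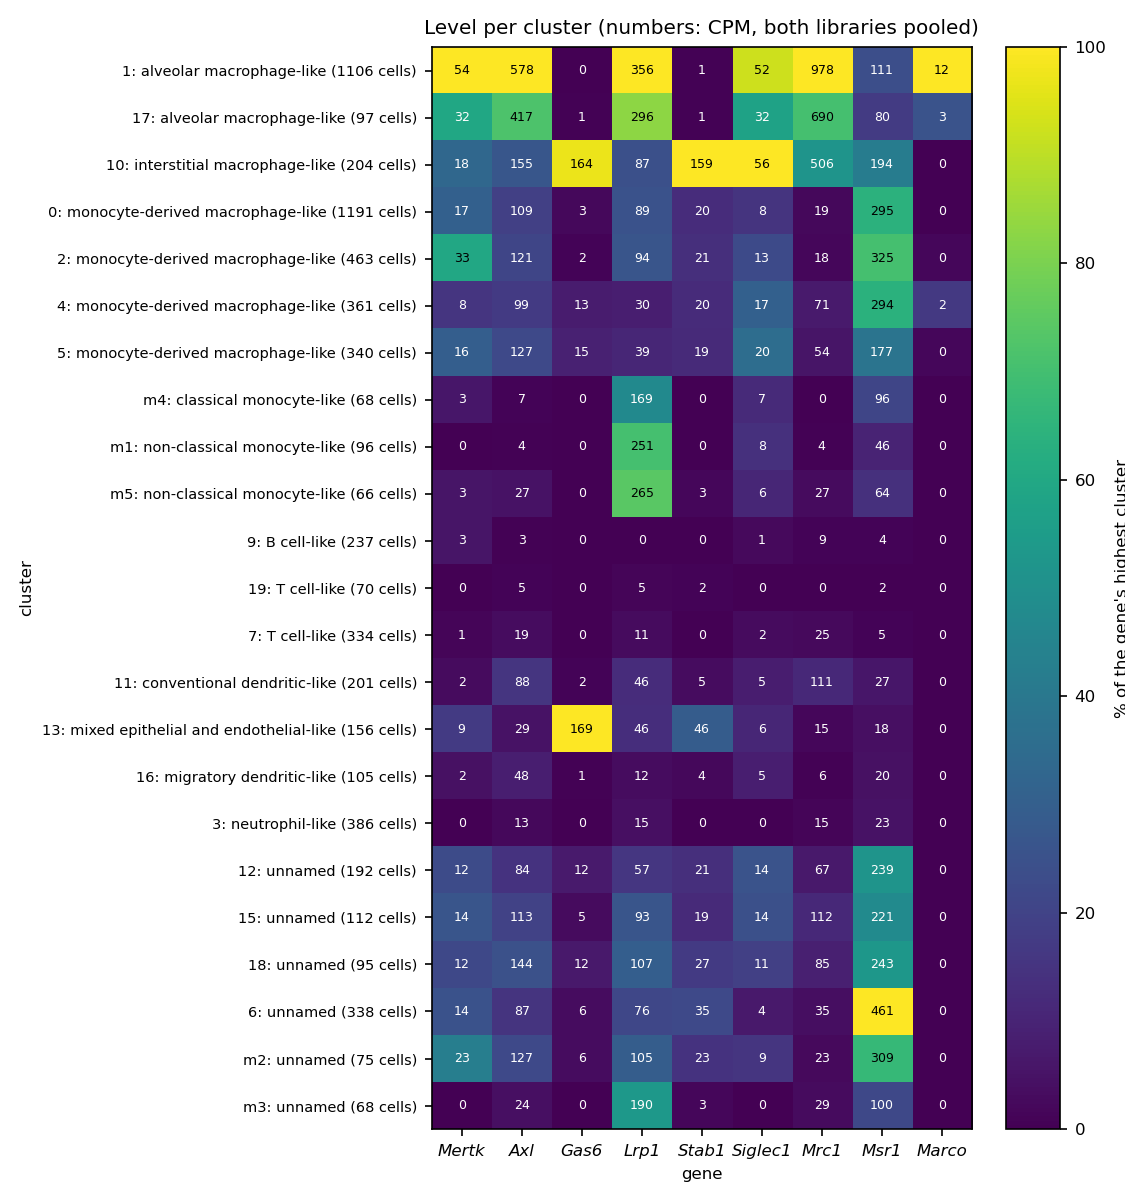
Level of each gene in every cluster of at least 50 cells, both libraries pooled; colour gives the percent of the gene's highest cluster and the printed number the CPM. The Mrc1, Axl, Mertk and Lrp1 maxima lie in the main alveolar cluster, the Stab1 and Siglec1 maxima in the interstitial cluster, and Gas6 is shared between the interstitial cluster and a mixed epithelial and endothelial one.

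Interstitial macrophage-like cells, as named in the main clustering, held a pair of cell groups that differed in most of the genes. At resolution 2.0 fewer than 50 distal cells held this name, so the name of the groups depends on the setting. Clustering at a higher resolution gave 1 group of 83 cells led by Pf4, Folr2 and Cbr2, of which 42 were niche and 41 distal cells, and 1 group of 105 cells led by Cxcl1, Mmp12 and Tnf, of which 34 were niche and 71 distal. In the Pf4-led group Gas6 had 387 CPM in niche cells (328 to 452) and 272 CPM in distal cells (214 to 341), whereas in the Cxcl1-led group it had 20.1 CPM in niche and 30.2 CPM in distal cells. Stab1 had 347 CPM in niche and 316 CPM in distal cells of the Pf4-led group, against 31.1 and 53.4 CPM in niche and distal cells of the other. For Mrc1 the levels were 963 CPM in niche and 1096 CPM in distal Pf4-led cells, and 117 CPM in niche and 156 CPM in distal Cxcl1-led cells. The Pf4-led levels were thus not below the 945 CPM of distal alveolar macrophage-like cells in point estimate.

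Siglec1 had 87.3 CPM in niche and 127 CPM in distal Pf4-led cells, against 14.6 and 32.5 CPM in niche and distal Cxcl1-led cells.

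The order was turned round for Axl. It had 82.3 CPM in niche and 127 CPM in distal Pf4-led cells, against 156 and 221 CPM in niche and distal Cxcl1-led cells. In point estimate the distal Pf4-led level was below the 144 CPM of distal monocyte-derived cells. Gas6 and Axl RNA thus ran in opposite directions between the same 2 groups, in both libraries, and the intervals of the groups did not overlap in the pooled values, 101 CPM (78.1 to 127) against 184 CPM (158 to 213) for Axl. Clusters are made from the same cells, so this is a description of them.

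In single cells at 4000 UMIs a cell, Gas6 was found together with Mrc1 and Stab1 more often in point estimate in both libraries, but the intervals were apart in 1 library for each gene. Mrc1 was found in 94.1% of the 34 niche interstitial cells with a Gas6 UMI (80.3% to 99.3%) and in 42.9% of the 42 without (27.7% to 59.0%), and in 75.0% of the 28 distal cells with Gas6 (55.1% to 89.3%) and in 51.4% of the 74 without (39.4% to 63.1%). Stab1 was found in 61.8% of niche cells with Gas6 (43.6% to 77.8%) and in 28.6% of those without (15.7% to 44.6%), and in 71.4% of distal cells with Gas6 (51.3% to 86.8%) and in 25.7% of those without (16.2% to 37.2%). Siglec1 was found in 23.5% of niche cells with Gas6 and in 21.4% of those without, and in 39.3% of distal cells with Gas6 (21.5% to 59.4%) and in 12.2% of those without (5.71% to 21.8%), so the intervals overlapped in both libraries. Axl was found in 38.2% of niche cells with Gas6 and in 57.1% of those without, and in 35.7% of distal cells with Gas6 and in 56.8% of those without, again with overlapping intervals. Receptor and ligand RNA were therefore counted in the same cells as well as in separate ones.

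**Figure D4:**
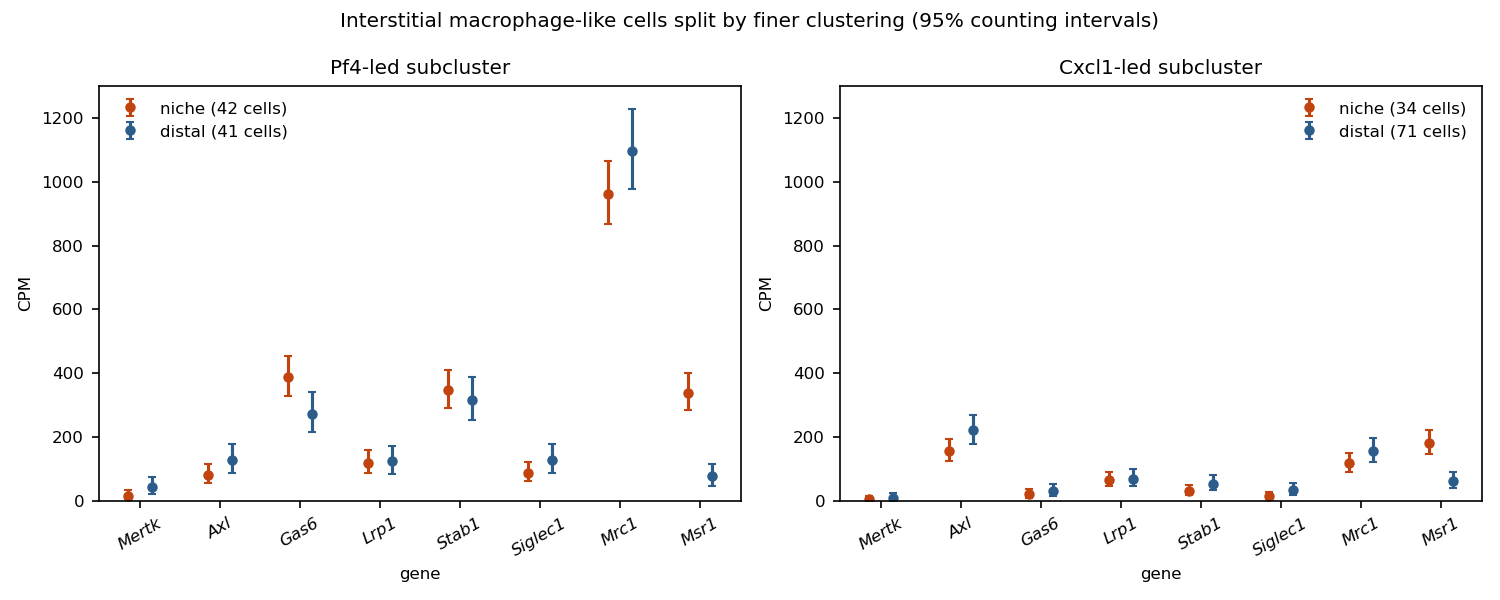
Level (CPM) of 8 genes in 2 groups of the cells named interstitial macrophage-like in the main clustering. The groups were found at the higher clustering resolution. Niche points stand left of distal points, with 95% counting intervals, and Marco had no UMI. Gas6, Stab1, Mrc1 and Siglec1 are higher in the Pf4-led group, Axl is higher in the Cxcl1-led group, and Msr1 is higher in niche than in distal cells of both.

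Niche and distal cells could be compared in the interstitial and the monocyte-derived class, which have at least 50 cells in each library. A gene was called when its 2 sums held at least 20 UMIs and the interval of the niche over distal ratio lay wholly beyond 1.5-fold. In interstitial macrophage-like cells 1 of the 8 genes with enough UMIs was called higher in the niche and none lower, where 1.77% of 6855 genes were called higher and 1.08% lower. The called gene was Msr1, with 279 CPM in niche cells (248 to 314, 283 UMIs) and 77.6 CPM in distal cells (58.9 to 100, 58 UMIs). The log2 ratio of niche over distal was 1.84 (1.44 to 2.28), a 3.57-fold difference.

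The Msr1 difference appeared in both interstitial groups. Pf4-led cells had 339 CPM in the niche library (285 to 401) and 76.2 CPM in the distal library (47.2 to 117), and Cxcl1-led cells had 181 CPM in the niche library (147 to 221) and 62.7 CPM in the distal library (41.3 to 91.2). After thinning to 2000 UMIs, Msr1 was detected in 27.8% of 79 niche interstitial cells (18.3% to 39.1%) and in 12.8% of 117 distal ones (7.36% to 20.3%), and these intervals overlap. Unthinned median depths of these cells were 11316 and 5717 UMIs in the niche and distal library. At 4000 UMIs a cell, the shares were 52.6% of 76 niche cells (40.8% to 64.2%) and 20.6% of 102 distal ones (13.2% to 29.7%). The intervals at 4000 UMIs did not overlap.

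Msr1 RNA also stood higher in niche cells of other kinds. Conventional dendritic-like cells had 74.4 CPM in the niche library (51.5 to 104) and 13.2 CPM in the distal library (8.06 to 20.4). Migratory dendritic-like cells had 17 UMIs in 58 niche cells and none in 47 distal cells. T cell-like cells had 28.8 CPM in the niche library, from 3 UMIs (5.95 to 84.3), and 2.29 CPM in the distal library, from 4 UMIs. Monocyte-derived cells, the Msr1-rich class, made up 65.4% of niche cells and 9.59% of distal cells, and the part of free RNA in the interstitial difference was not tested.

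The other interstitial differences were smaller than the calling rule asks. Gas6 had 195 CPM in niche cells (169 to 225) and 120 CPM in distal cells (96.8 to 148), a log2 ratio of 0.69 (0.33 to 1.07). The Pf4-led group with the most Gas6 supplied 42 of 84 niche and 41 of 120 distal cells of the class, and within it the Gas6 intervals of the libraries overlapped. Axl had 129 CPM in niche and 189 CPM in distal cells, a log2 ratio of -0.54 (-0.90 to -0.19). For Mrc1, Stab1 and Lrp1 the log2 ratios were -0.03, 0.14 and 0.07, and Mertk and Siglec1 had 14 and 49 UMIs in niche cells, against 18 and 50 in distal cells, with intervals that include 0. The median log2 ratio was 0.02 over the 8 genes and 0.07 over all genes tested. Where the interval had only to lie beyond 1-fold, 2 of the 8 genes were higher (Msr1 and Gas6) and 1 lower (Axl), beside 12.7% of all genes higher and 7.5% lower.

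In monocyte-derived macrophage-like cells none of the 8 genes was called in either direction, where 1.31% of 11318 genes were called higher and 1.76% lower. Msr1 came nearest, with 290 CPM in niche cells (284 to 296) and 189 CPM in distal cells (173 to 205), a log2 ratio of 0.62 (0.50 to 0.75) whose lower end is under 1.5-fold. Mertk had 17.6 CPM in niche cells (16.1 to 19.2) and 10.4 CPM in distal cells (7.04 to 14.7), a log2 ratio of 0.74 (0.24 to 1.34). Axl differed in the opposite direction, with 107 CPM in niche cells (104 to 111) and 144 CPM in distal cells (131 to 158), a log2 ratio of -0.43 (-0.57 to -0.28). For Gas6, Stab1, Mrc1, Siglec1 and Lrp1 the log2 ratios lay between -0.34 and -0.05, and each interval included 0. Within the C1q-led cluster alone Gas6 met the rule as lower, with 12.9 CPM in niche and 36.5 CPM in distal cells. Its log2 ratio was -1.53 (-2.28 to -0.65), and its 18 distal UMIs came from 9 cells. Lrp1 (-0.88) and Mrc1 (-0.74) were lower there without meeting the rule. In the largest and the interferon-led cluster the intervals of these genes included 0. The median over the 8 genes was -0.12, beside -0.02 over all genes tested. Beyond 1-fold, 2 of the 8 genes were higher (Msr1 and Mertk) and 1 lower (Axl), beside 12.5% of all genes higher and 12.8% lower.

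The Axl difference had the same direction within the 3 monocyte-derived clusters that hold at least 50 cells in each library. The largest cluster had 104 CPM in niche and 151 CPM in distal cells, the interferon-led cluster 117 CPM in niche and 159 CPM in distal cells, and the C1q-led cluster 122 CPM in niche and 177 CPM in distal cells. The cycling cluster, with 314 niche and 47 distal cells, showed no such difference, at 98.8 CPM in niche cells (711 UMIs) and 98.0 CPM in distal cells (68 UMIs). Msr1 varied more between clusters, with 327 CPM in niche cells, against 300 CPM in distal cells, of the interferon-led cluster, with a log2 ratio of 0.12 (-0.15 to 0.41), but 306 CPM in niche and 199 CPM in distal cells of the largest, with 0.62 (0.45 to 0.80). Distal alveolar cells, the Axl-rich class, made up 34.3% of that library. In T cell-like cells Axl had 9.61 CPM in the niche library, from 1 UMI, and 14.3 CPM in the distal library. It was higher in the niche in conventional dendritic-like cells, at 136 CPM in niche (104 to 174) and 73.9 CPM in distal cells (60.8 to 88.9), and had 56.4 CPM in niche and 34.0 CPM in distal migratory dendritic-like cells, with overlapping intervals. The mixed epithelial and endothelial cluster had 11 Axl UMIs in 33 niche cells and 8 in 123 distal cells, 52.9 CPM in the niche library. Dendritic-like cells and this cluster thus did not share the direction seen in the macrophages, and the part of free RNA in the Axl difference was not tested.

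**Figure D5:**
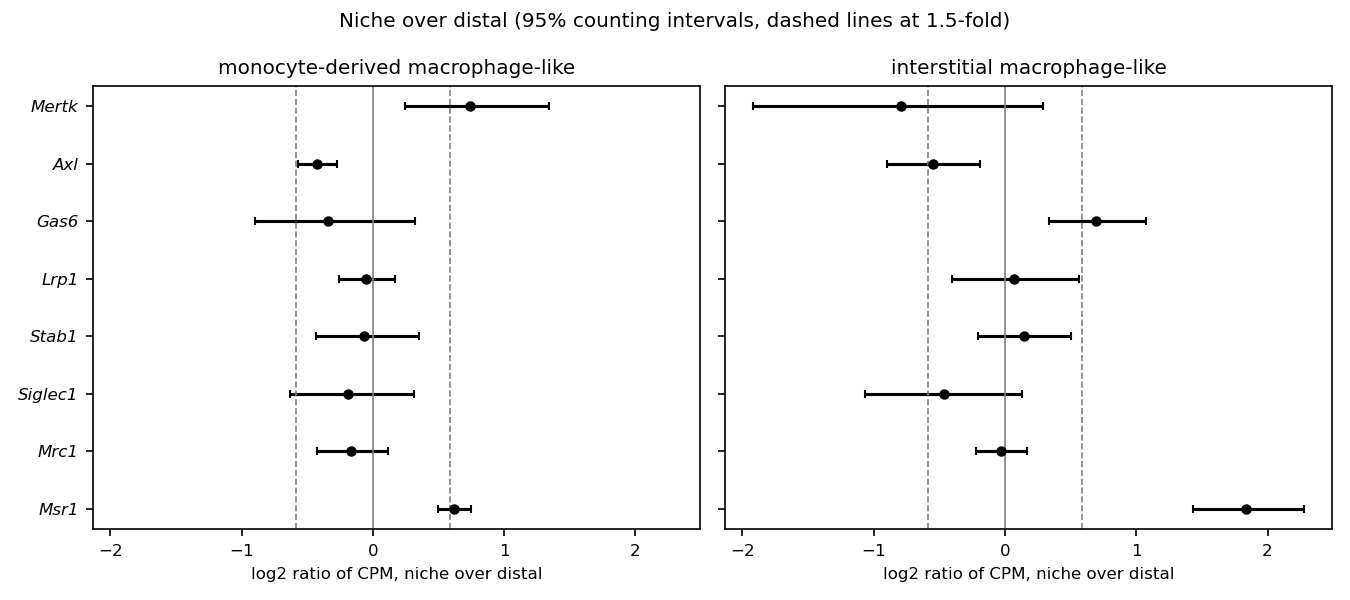
Log2 ratio of CPM, niche over distal, for the 8 genes with enough UMIs in monocyte-derived (left) and interstitial (right) macrophage-like cells, with 95% counting intervals; dashed lines mark 1.5-fold. The interval of Msr1 lies wholly beyond 1.5-fold in interstitial cells, at 1.84, and that of no other gene does in either class.

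Further genes of the pathway were taken from a list of 44 genes for bridging proteins, engulfment machinery, other scavenger receptors and lipid export after uptake, of which 43 are on shared identifiers and Clec7a was not analysed here. In monocyte-derived cells 34 had enough UMIs, and 1 was called lower and none higher, a share near the 1.76% lower and 1.31% higher over all genes tested. That gene was Anxa1, annexin A1, a protein of dying cells and of resolving inflammation, with 86.8 CPM in niche and 149 CPM in distal cells and a log2 ratio of -0.78 (-0.93 to -0.63). Without the cycling clusters its log2 ratio was -0.62 (-0.80 to -0.44), and it was no longer called. In interstitial cells none of 31 was called, beside 1.77% of all genes higher and 1.08% lower. The median log2 ratios of the list genes were -0.06 and -0.09 in the monocyte-derived and the interstitial class. Over all genes tested they were -0.02 and 0.07.

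The 6 list genes with the most RNA in monocyte-derived cells did not meet the calling rule. Npc2, which moves cholesterol out of lysosomes, had 1576 CPM in niche and 1728 CPM in distal cells. Calr, calreticulin, had 1102 CPM in niche and 802 CPM in distal cells, a log2 ratio of 0.46 (0.40 to 0.52). Cxcl16, a chemokine that also acts as a scavenger receptor, had 935 CPM in niche and 876 CPM in distal cells, and Cd68, a lysosomal scavenger-family protein, had 449 CPM in niche and 439 CPM in distal cells. Rac1, a GTPase of the engulfment machinery, had 381 CPM in each library, and Cd47, the ligand that restrains phagocytosis, had 308 CPM in niche and 356 CPM in distal cells, a log2 ratio of -0.21 (-0.30 to -0.12). The intervals of Calr, Cd47, Npc2 and Cxcl16 exclude equal levels, and those of Cd68 and Rac1 do not. These genes were picked for their high counts, which make the intervals narrow. Of the 34 list genes with enough UMIs, 5 were higher and 7 lower beyond 1-fold, beside 12.5% of all genes higher and 12.8% lower.

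Genes with the most similar profile were sought over 23 clusters, both libraries pooled, as a description of points that share library and depth. For Axl these were Sh3pxd2b (Pearson r 0.963), Dab2 and P2ry14, and for Mertk Atp13a2 (0.856), Slc12a7 and Aig1. Gas6 was followed most closely by Pmp22 (0.959), Igf1 and Cp, and Stab1 by Pf4 (0.895), Tmem37 and Prxl2b. Msr1 ran with Fcgr1 (0.966), Pla2g4a and Ctsc, and Mrc1 with Pla2g15 (0.862), Lrp12 and Lpl. The closest genes to Siglec1 were Ctsf (0.851), Glul and Cltc, those to Lrp1 were Plod3 (0.939), Dpep2 and Tnfrsf21, and those to Marco were Kcnn3 (0.899), Slc6a4 and Flvcr2. Fcgr1, Pf4 and Lpl are among the markers used to name classes. Among the genes themselves, Axl and Mertk had an r of 0.87 and Gas6 and Stab1 an r of 0.83, whereas Axl and Gas6 had 0.21.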

How the data were processed

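Raw UMI counts of 2 droplet libraries, 1 niche and 1 distal, were used as deposited. Per the file headers they came from Cell Ranger 6.0.0 (niche) and 3.0.2 (distal). The submitters' processing notes name mm10 and GRCm38 as builds and, among other tools, Seurat 4.1.1, with no order of steps. The kit was a 3′ kit per the labels' protocols. Counting software and gene list (32285 niche and 30149 distal rows) are confounded with the library. None of the 9 genes shares exonic bases on its strand with another gene in GENCODE.

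Barcodes under 200 genes or over 10% mitochondrial UMIs were dropped (161 niche and 405 distal). Scrublet in scanpy 1.11.5, at an expected rate of 0.03, called 0 niche and 5 distal doublets, 0.0755% of cells, too few for the caller to have worked; these cells were dropped. The 2 libraries were clustered jointly and unaligned on 2000 variable genes without the 9 genes and the pathway list, with 30 components, 20 neighbours and Leiden resolution 1.0; clusters with markers of both monocyte classes were clustered again. A name needed 0.75 of a class's markers, each at 0.15 or more of its highest cluster and in 0.1 of cells; 688 niche and 296 distal cells stayed unnamed. The members, lists and thresholds were chosen with earlier results of these data known, and the second monocyte step after clusters were seen.

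UMIs were summed per class and library, with exact Poisson intervals, Clopper-Pearson intervals for shares, and conditional binomial intervals for ratios with 0.5 UMI added (scipy 1.17.1). With 1 library a group there was no test. The floor of a zero count is 3 UMIs. Similar profiles were ranked by Pearson r of log2(CPM + 10) over the 23 clusters of at least 50 cells, among genes reaching 50 CPM, and the 3 closest are named. All 9 genes are named; list genes are named where called or among the 6 highest in monocyte-derived cells. Ratio calling was tested on simulated counts.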

Additional observations from a re-analysis of the deposited data

How the results depend on the processing

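The Msr1 call in interstitial cells held under all 14 alternatives that could be run, with log2 ratios from 1.77 to 1.92. Several of these could not change it. The class is 1 cluster that is not cycling, so leaving out cycling clusters, using the largest cluster or adding clusters to the monocyte-derived class left it as it was. Other UMI minimums, 1 added UMI and the 1-fold limit could not undo the call either. In monocyte-derived cells its log2 ratio ran from 0.37 to 0.78. Of 255 ratio values over all alternatives, 242 stayed on the same side of the calling rule, 13 passed it newly and no called value changed sign; ratios near 0 did change sign, among them Gas6 (-1.13 to 0.61) and Mrc1 (-1.24 to 0.46) in monocyte-derived cells. At resolution 0.5 no interstitial class was found: 1 gene was then called higher (Msr1) and 2 lower (Gas6 and Mrc1) in monocyte-derived cells, 3 pathway genes were called lower, and 3 of the 9 genes were highest in that class. At resolution 2.0 the interstitial class had too few cells to compare, 1 gene (Marco) was called lower, 3 pathway genes lower, and 4 genes were highest in monocyte-derived cells. Leaving out the highest 5% of doublet scores, or keeping the genes among the clustering genes, each gave 1 member lower (Marco), 3 pathway genes lower and 2 genes highest in monocyte-derived cells (Msr1 and Marco). A mitochondrial limit of 5% called 1 pathway gene higher in interstitial cells, and leaving out cycling clusters called 0 lower in monocyte-derived ones: the Anxa1 call was lost, at a log2 ratio of -0.62, and it was also lost in a mean over cells (-0.68) and in the largest cluster alone (-0.68). With no minimum of UMIs 1 gene (Marco) was called lower. An interval beyond 1-fold called 2 genes higher (Msr1 and Mertk) and 1 lower (Axl) in monocyte-derived cells, where 12.5% of all genes were called higher and 12.8% lower, and 2 higher (Msr1 and Gas6) and 1 lower (Axl) in interstitial cells, beside 12.7% of all genes higher and 7.5% lower. A mean over cells of each cell's own CPM called 2 higher in interstitial cells, with Gas6 at 1.16. Adding 2 unnamed macrophage clusters, an alternative chosen after seeing the data, gave 2 pathway genes lower. Where no value shows it, the cause was not tested.

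Levels moved beyond their interval in 46 of 297 values, and thinned shares in 79 of 126. A share rises by construction with the UMIs kept per cell, so moves between depths were to be expected. Axl in distal alveolar cells, for example, had 68.1% at 2000 and 89.1% at 4000 UMIs a cell. No paired analysis was possible because each condition is 1 library, and leaving out a replicate was not run for the same reason. Intervals cover counting error only, and the niche holds too few alveolar and monocyte cells to compare.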

Other observations

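An unnamed cluster of 12 cells, 2 niche and 10 distal, was led by Saa3, Prg4 and Alox15, genes that are also known from macrophages of serous cavities. It was examined after its values were seen. It had 959 CPM of Timd4, a phosphatidylserine receptor (interval 799 to 1143, 125 UMIs), against 56.5 CPM in niche and 76.9 CPM in distal monocyte-derived macrophage-like cells, and 599 CPM of Msr1 (473 to 747). Its 51 Marco UMIs came from 2 of the 10 distal cells, with 50 in a single cell. Axl had 30.7 CPM in it and Gas6 no UMI.

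The unnamed low-depth cluster of 328 niche and 10 distal cells, with a median of 943.5 UMIs, was led by the heat-shock genes Hspa1a and Hspa1b and had the highest Msr1 level of any cluster of at least 50 cells, 461 CPM (404 to 523), with 87.5 CPM of Axl and 3.89 CPM of Siglec1.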
